A study of Mus musculus with 177 samples.

Results

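The eyes described here came from newborn C57BL/6 mice at postnatal day 7 that never had hypoxia. They cover 18 of the 177 arrays in the series and 18 of its 57 eye arrays, chosen by sample title. In the N100 group (9 arrays) the pups breathed air for 120 min, then 100% oxygen for 30 min, and then air again for 150 min before the eyes were taken. In the N21 group (9 arrays) the 30 min phase was 21% oxygen, so these pups had air throughout. The other groups of the series had an inspired oxygen fraction of 0.08 for the first 120 min in place of air, and H100 and H21 name those given 100% or 21% oxygen afterwards. The comparison therefore asks what a short exposure to pure oxygen left behind in the eye when no oxygen deficit came before it. Lung and brain were measured in the same way. The labels name the strain and no genetic change, and the design text counts 62 mice, randomized. An array was taken as the eye RNA of 1 animal, although no label ties arrays of different tissues to an animal.

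Retinal vessels of the newborn mouse are still growing over the retina at this age, and their growth is steered by oxygen. Astrocytes and neurons that are short of oxygen stabilize hypoxia-inducible factor (HIF), HIF raises vascular endothelial growth factor (Vegfa), and Vegfa draws the vessel front outward. High oxygen is known to silence this axis and, over days, to prune capillaries, which is the basis of mouse models of retinopathy of prematurity. Oxygen in excess also yields reactive species that are known to switch on NRF2 target genes such as Hmox1 and Nqo1. Over the same days retinal progenitors finish dividing and rods, bipolar cells and Müller glia mature, so levels of their marker genes move with developmental age.

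The arrays are whole-transcript Affymetrix arrays, and all levels are the authors' deposited log2 values. They were made with RMA, which removes background, gives arrays normalized together a common distribution and combines the probes of each probe set. Eye, brain and lung appear to have been normalized separately. A difference of 1 on this scale is a doubling of signal. Each of the 18 arrays correlated at 0.973 or more with the mean of the other eye arrays, and at no more than 0.904 with the brain mean and 0.886 with the lung mean. The lens crystallin Cryaa lay between 14.11 and 14.27 in N100 eyes and between 13.93 and 14.33 in N21 eyes, near the top of a scale that ends at 14.54. The lowest correlation, 0.973, was that of N21 replicate 7. Of the N100 arrays 8 stood in the first 113 columns of the deposited table and 1 in the later columns, against 5 and 4 of the N21 arrays. That position is no stated batch, but 7712 of 19937 genes differed with it in the eye, so it was a term of the fit. The eyes of 5 of 9 N100 pups and 7 of 9 N21 pups were female by Xist and Y-linked genes. Within the first columns all N21 eyes were female, while N100 replicates 2, 3, 5 and 7 were male. Values within the first columns thus carry a sex imbalance, and its part in them was not tested.

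N21 replicate 2 stood apart. Genes that separated the hypoxia eyes from the eyes without hypoxia were found in fits without the array in question, and the mean shift of that array toward the hypoxia side was then read over them. N21 replicate 2 was shifted by 0.40 over 43 genes, with 100% of these genes on the hypoxia side. The 9 N100 arrays lay between -0.13 and 0.13, and the other 8 N21 arrays between -0.03 and 0.15. The 38 arrays of the hypoxia groups ran from 0.02 to 0.54, with a median of 0.35. N21 replicate 2 therefore lay among the hypoxia arrays and outside both groups described here. Values below include it unless stated. Gene counts, signs of the named genes and some list medians are also given without it.

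**Figure D1:**
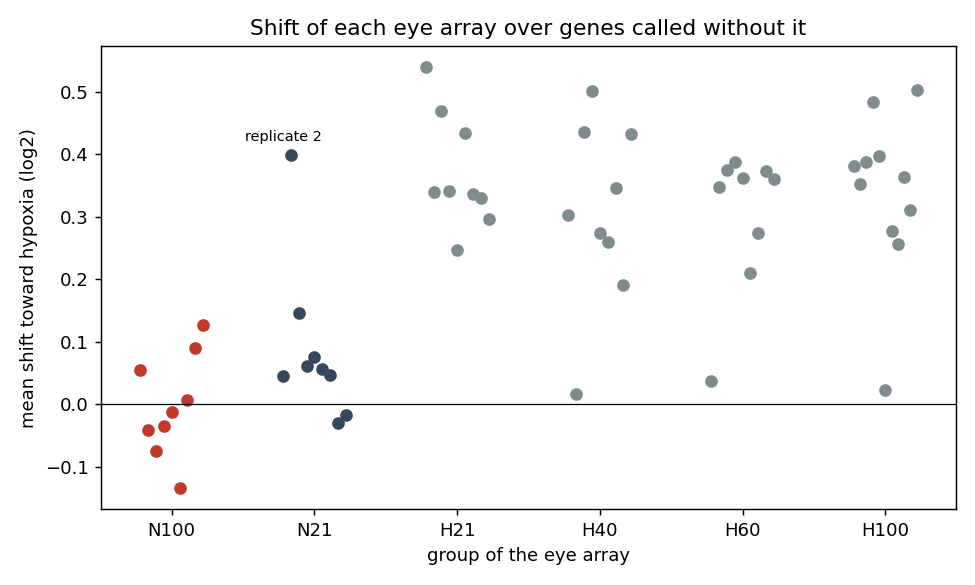
Mean shift of each eye array toward hypoxia (log2, vertical axis) by group, read over genes called in a fit without that array. Each point is 1 array; N21 replicate 2, at 0.40, lies among the hypoxia arrays, while the N100 arrays stay between -0.13 and 0.13.

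No gene of the eye passed the test for a difference between N100 and N21. In limma with all 56 eye arrays in 1 fit and Benjamini-Hochberg adjustment, 0 of 19937 genes (0%) had an adjusted p under 0.05, and the smallest adjusted p was 0.999. At an unadjusted p under 0.05 there were 437 genes (2.19%), of which 265 (1.33%) had a positive difference and 172 (0.863%) a negative one. Without N21 replicate 2 the count of called genes was again 0, with 610 genes at an unadjusted p under 0.05. Within the first 113 columns, where the groups differ in sex, it was also 0, with 495 genes at that level. There the split turned to 208 positive and 287 negative. The later columns hold 1 N100 array against 4 N21 arrays, too few for a value of their own.

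The precision of the arrays bounds how large an unseen difference could be. The median standard error of a gene's N100 minus N21 difference was 0.10, and the errors of the central 90% of genes ran from 0.068 to 0.175. The 95% confidence interval stayed within -1 to 1 for 19850 genes (99.6%) and within -0.5 to 0.5 for 18958 genes (95.1%). The differences were small: the median size was 0.06, 99% of genes lay under 0.29 in size, and 35 genes exceeded 0.5. Their median over all genes was 0.00, and 51.4% were positive. The intervals thus leave room for changes of under 0.5 in size at most genes, for larger ones at the genes whose interval passed -0.5 or 0.5, and for changes of 1 or more at the 87 genes (0.436%) whose interval reached -1 or 1.

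**Figure D2:**
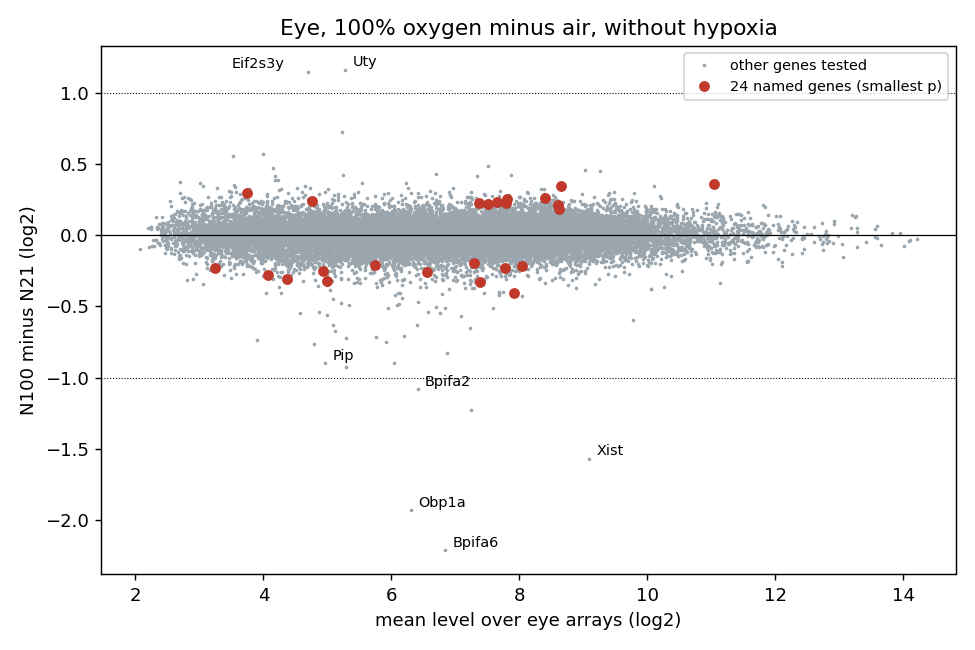
N100 minus N21 difference (log2, vertical axis) of each of 19937 genes in eye against its mean level over the eye arrays (log2, horizontal axis); red circles are the 24 named genes, the dotted lines mark -1 and 1. The labelled genes far from 0 are gland and sex-linked genes with wide errors, such as Bpifa6 at -2.21 ± 1.93.

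The genes with the smallest unadjusted p, 12 in each direction, are given here as values, because none was called. On the positive side the differences ran from 0.18 to 0.36, with unadjusted p from 0.00049 to 0.0055 in limma. Dot1l, the methyltransferase of lysine 79 of histone H3, had the smallest of these p. Its level ran from 7.62 to 8.05 in N100 eyes with a median of 7.78, against 7.44 to 7.74 with a median of 7.61 in N21 eyes, a difference of 0.23 ± 0.06 (± is the standard error of the fit throughout; adjusted p = 0.999). All 9 N100 eyes lay above the N21 median, and 5 lay above every N21 eye, but the groups overlapped.

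Several others of this group act in signalling. Dusp7, a phosphatase that switches off ERK-type MAP kinases, had levels of 8.54 to 9.05 (median 8.75) in N100 eyes and 8.41 to 8.73 (median 8.49) in N21 eyes, a difference of 0.21 ± 0.06. Gab2, a docking protein of growth factor receptors, had 7.37 to 7.84 (median 7.62) in N100 eyes and 6.96 to 7.54 (median 7.41) in N21 eyes, a difference of 0.22 ± 0.06. Both showed the pattern of Dot1l, with most N100 eyes above the N21 median and overlapping ranges. Sipa1l3, a Rap GTPase regulator whose loss causes cataract, ran from 8.37 to 8.73 (median 8.56) in N100 eyes and from 8.02 to 8.52 (median 8.27) in N21 eyes, a difference of 0.26 ± 0.08. Pacs1, a sorting adaptor of the trans-Golgi network, differed by 0.23 ± 0.07.

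Among regulators of RNA and chromatin, Mllt6, known as a fusion partner of MLL in leukaemia, differed by 0.26 ± 0.08. Samd4b, a Smaug-type RNA-binding protein, differed by 0.23 ± 0.07, and Ago2, the argonaute that cleaves RNA targets, by 0.18 ± 0.06. The largest difference on this side belonged to Atp1b2, a beta subunit of the sodium pump found on glia and photoreceptors. Its level ran from 11.04 to 11.53 (median 11.15) in N100 eyes against 10.54 to 11.30 (median 10.94) in N21 eyes, a difference of 0.36 ± 0.13, and 4 N100 eyes lay above every N21 eye. Abcg4, a sterol transporter of neurons, differed by 0.34 ± 0.11, Xkr9, a caspase-activated lipid scramblase, by 0.30 ± 0.10, and Dnase1l3, a secreted DNase, by 0.24 ± 0.08.

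On the negative side the differences ran from -0.41 to -0.20, with unadjusted p from 0.00059 to 0.0079. The largest in size was that of Cenpa, the histone H3 variant of centromeres. Its level ran from 7.34 to 8.08 (median 7.54) in N100 eyes and from 7.54 to 8.39 (median 8.09) in N21 eyes, a difference of -0.41 ± 0.14. All 9 N100 eyes lay below the N21 median, and 5 lay below every N21 eye, but the ranges overlapped. Il1r2, the decoy receptor of interleukin 1, showed the cleanest separation of the genes named here, but at a low level. The gene was among the dimmest 40% that an alternative fit left out, so its difference was not tested there. It ran from 4.51 to 4.97 (median 4.72) in N100 eyes and from 4.92 to 5.40 (median 5.17) in N21 eyes, a difference of -0.32 ± 0.11, with 8 of 9 N100 eyes below every N21 eye.

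The others on this side have varied roles. Ccdc81 ran from 3.84 to 4.47 (median 4.22) in N100 eyes and from 4.19 to 4.74 (median 4.48) in N21 eyes, a difference of -0.31 ± 0.09 and the smallest p on this side. Ppcs, an enzyme of coenzyme A synthesis, ran from 6.87 to 7.59 (median 7.15) in N100 eyes and from 7.25 to 7.83 (median 7.54) in N21 eyes, a difference of -0.33 ± 0.10. Nup107, a scaffold protein of the nuclear pore, differed by -0.22 ± 0.07 in the fit, by -0.13 ± 0.07 within the first columns and by -0.16 without the position term. For these genes too the N100 and N21 ranges overlapped. Nudt1, which hydrolyses oxidized purine nucleotides, ran from 6.02 to 6.69 (median 6.30) in N100 eyes and from 6.42 to 7.02 (median 6.63) in N21 eyes, a difference of -0.26 ± 0.09. Hacl1, a lyase of fatty acid alpha-oxidation in peroxisomes, differed by -0.23 ± 0.08, and Dph5, an enzyme of diphthamide synthesis, by -0.20 ± 0.07. Cd2, an adhesion protein of T cells, differed by -0.25 ± 0.09, Tm4sf20 by -0.28 ± 0.09, Serpinb6e by -0.23 ± 0.08 and Sh3d21 by -0.21 ± 0.07.

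The 24 genes were picked for small p from all genes, so their size is a description. Ranges of the groups overlapped for 24 of 24. Their sign was the same without N21 replicate 2, within the first 113 columns and without the position term in 24 of 24. These settings share most of their arrays.

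**Figure D3:**
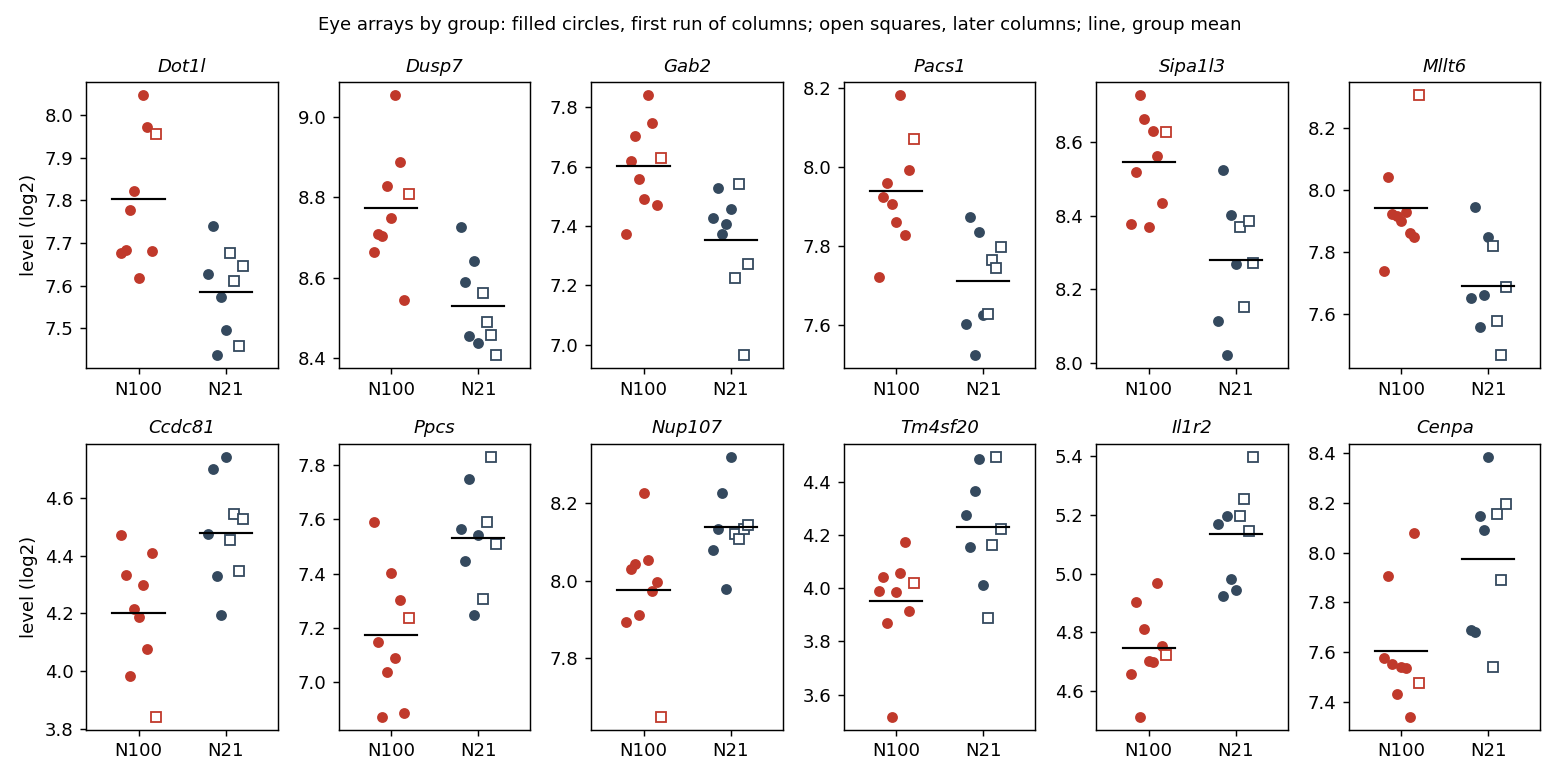
Log2 level of 12 of the named genes in each eye array (vertical axes), 6 with a positive difference above and 6 with a negative one below; N100 is left of N21, filled circles stand in the first columns, open squares in the later ones, and the line is the group mean. The ranges overlap in every panel, least for Il1r2, where 8 of 9 N100 eyes lie below every N21 eye.

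Of the genes of 47 lists for cell types and pathways, 600 distinct genes were measured and 0 were called (0% of all genes tested were). At an unadjusted p under 0.05 there were 11 (1.83%), against 2.19% of all genes, so the lists held no more small p than the background. The axis of vessel growth lay near 0. Of 29 genes of the VEGF, angiopoietin and vessel growth list, 18 had a positive and 11 a negative difference. The median was 0.01 against 0.00 over all genes. All 29 confidence intervals stayed within -0.5 to 0.5, as did those of 95.1% of all genes.

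Vegfa, the main growth factor of this axis, ran from 8.58 to 9.51 (median 9.04) in N100 eyes and from 8.78 to 9.43 (median 9.01) in N21 eyes. Its difference was 0.09 ± 0.10, with a 95% interval of -0.11 to 0.30, and -0.05 ± 0.11 within the first columns. The N100 range thus spanned the whole N21 range. Kdr, the main signalling receptor of Vegfa, differed by 0.06 ± 0.11 (95% interval -0.17 to 0.29). Angpt2, the angiopoietin of remodelling vessels, differed by -0.06 ± 0.10, Fzd4, the receptor of norrin in retinal vessels, by 0.15 ± 0.10, and Epo, erythropoietin, by 0.15 ± 0.10. The 12 endothelial markers had a median difference of 0.00, and Pecam1, an adhesion protein of endothelium, differed by 0.03 ± 0.12. In bulk RNA of an eye, fewer cells of a type and less RNA per cell cannot be told apart, and this holds for every cell-type list below.

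The 25 HIF target genes had a median difference of 0.02, with 15 positive and 10 negative. Within the first columns the median of this list was -0.03, with 14 of 25 negative. Without N21 replicate 2 it was 0.05, with 10 of 25 negative. Bhlhe40, a transcriptional repressor of the HIF and clock pathways, had the smallest unadjusted p of the list, 0.042. It ran from 6.68 to 7.35 (median 7.02) in N100 eyes and from 6.44 to 7.16 (median 6.87) in N21 eyes, a difference of 0.18 ± 0.09 that did not pass the adjustment. P4ha1, a collagen prolyl hydroxylase subunit, differed by 0.17 ± 0.10, and Adm, adrenomedullin, by -0.12 ± 0.14. The 14 glycolysis genes had a median of 0.01, which was -0.07 with 10 of 14 negative within the first columns. Without N21 replicate 2 the glycolysis median was 0.04, with 2 of 14 negative.

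Genes of the answer to oxidants showed no common direction. Of 22 antioxidant and NRF2 genes, 7 had a positive and 15 a negative difference, with a median of -0.03. Hmox1, haem oxygenase 1, ran from 9.87 to 10.75 (median 10.63) in N100 eyes and from 10.07 to 10.96 (median 10.39) in N21 eyes, a difference of 0.14 ± 0.15 (95% interval -0.15 to 0.43). Nqo1, a quinone reductase, differed by -0.10 ± 0.14, and Sod2, the mitochondrial superoxide dismutase, by -0.02 ± 0.05 (95% interval -0.12 to 0.08). Osgin1, an oxidative stress response gene, differed by -0.16 ± 0.08 (unadjusted p = 0.044), Sod3, the extracellular superoxide dismutase, by 0.17 ± 0.09, and Ftl1, the ferritin light chain, by -0.28 ± 0.20.

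The metallothioneins, small metal-binding proteins induced by zinc, oxidants and glucocorticoids, differed among themselves. Mt2 ran from 8.50 to 9.94 (median 9.39) in N100 eyes and from 9.33 to 10.22 (median 9.85) in N21 eyes, a difference of -0.38 ± 0.22 (unadjusted p = 0.086). Mt1 ran from 9.09 to 9.96 (median 9.58) in N100 eyes and from 9.68 to 10.71 (median 9.78) in N21 eyes, a difference of -0.20 ± 0.14. For Mt1, 6 of 9 N100 eyes lay below every N21 eye, and for Mt2, 4 of 9 did. Within the first columns the differences were -0.63 ± 0.28 for Mt2 and -0.33 ± 0.17 for Mt1. Mt4, a metallothionein of stratified epithelia, ran from 5.01 to 6.27 (median 5.59) in N100 eyes and from 5.02 to 5.61 (median 5.22) in N21 eyes, a difference of 0.27 ± 0.10 (unadjusted p = 0.012). The 6 genes split into 3 positive and 3 negative, with a median of -0.01.

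Of the measured bipolar cell markers 9 of 9 had a positive difference, with a median of 0.22. Grm6, the glutamate receptor of ON bipolar cells, ran from 6.06 to 7.78 (median 7.15) in N100 eyes and from 5.73 to 7.53 (median 6.38) in N21 eyes, a difference of 0.43 ± 0.30. Prkca, a kinase of rod bipolar cells, ran from 7.87 to 8.84 in N100 eyes and from 7.41 to 8.61 in N21 eyes, a difference of 0.27 ± 0.13 (unadjusted p = 0.045). Vsx1, a transcription factor of cone bipolar cells, differed by 0.27 ± 0.29, and Trpm1, the channel that Grm6 gates, by 0.22 ± 0.15. The genes of such a list move together from eye to eye, so 9 like signs are not 9 separate observations.

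Rods had the same sign. Of 12 measured rod markers 12 had a positive difference, with a median of 0.13, and 0 had an unadjusted p under 0.05. Pde6a, a subunit of the phosphodiesterase of phototransduction, differed by 0.31 ± 0.30, Gnat1, rod transducin, by 0.28 ± 0.39, Gngt1, a transducin gamma subunit, by 0.18 ± 0.20, Sag, rod arrestin, by 0.12 ± 0.16 and Nrl, the transcription factor of rod fate, by 0.06 ± 0.13. The wide errors reflect eye-to-eye spread: Gnat1 ran from 7.52 to 10.57 in N100 eyes and from 7.79 to 10.20 in N21 eyes. Of 11 retinoid cycle genes 9 were positive, with a median of 0.16, which was 0.23 without N21 replicate 2. Rdh12, a retinol dehydrogenase of photoreceptors, ran from 8.55 to 10.43 (median 9.69) in N100 eyes and from 8.19 to 10.21 (median 8.96) in N21 eyes, a difference of 0.45 ± 0.26, and Rdh8, a like enzyme of outer segments, differed by 0.27 ± 0.14.

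Inner retinal interneurons showed smaller positive values. Of 13 amacrine and horizontal cell markers 13 were positive, with a median of 0.12. Lhx1, a transcription factor of horizontal cells, ran from 5.57 to 6.31 (median 5.96) in N100 eyes and from 5.54 to 6.04 (median 5.75) in N21 eyes, a difference of 0.20 ± 0.10 (unadjusted p = 0.044), and Prox1, a factor of horizontal and amacrine cells, differed by 0.23 ± 0.12. Within the first columns the median of this list was 0.06 and 5 of its 13 genes were negative, so the uniform sign was not seen there. Cones had a median of 0.07, with 8 of 10 positive, and ganglion cells 0.08, with 6 of 10 positive. Müller glia had a median of -0.03, with 7 of 10 negative. Glul, the glutamine synthetase of Müller glia, differed by -0.04 ± 0.12, Gfap, an intermediate filament that rises in reactive glia, by 0.09 ± 0.24, and Aqp4, the water channel of glial endfeet, by 0.22 ± 0.15.

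Genes of cell division had the opposite sign. Of 19 measured mitosis genes 19 had a negative difference, from -0.31 to -0.11, with a median of -0.24 against 0.00 over all genes, but 0 had an unadjusted p under 0.05. In lung the N100 minus N21 median of this list was -0.11, with 18 of 19 negative, and in brain 0.02, with 8 of 19 negative. Aurkb, a kinase of chromosome segregation, ran from 7.01 to 8.27 (median 7.43) in N100 eyes and from 7.22 to 8.19 (median 7.60) in N21 eyes, a difference of -0.29 ± 0.17. Birc5, survivin, ran from 5.95 to 6.52 (median 6.29) in N100 eyes and from 6.01 to 6.89 (median 6.57) in N21 eyes, a difference of -0.19 ± 0.11, with all 9 N100 eyes below the N21 median. Mki67, the Ki-67 protein of cycling cells, differed by -0.20 ± 0.22, Cdk1, the kinase that drives mitosis, by -0.28 ± 0.18, and Ttk, a checkpoint kinase, by -0.30 ± 0.19. Of 25 DNA replication genes 24 were negative, with a median of -0.12. Rfc3, a clamp loader subunit, ran from 7.45 to 7.91 (median 7.74) in N100 eyes and from 7.48 to 8.29 (median 7.92) in N21 eyes, a difference of -0.22 ± 0.10 (unadjusted p = 0.04), and Prim1, the primase, differed by -0.28 ± 0.16.

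Some eyes that were high for division genes were low for neuron genes. The mean level of the mitosis list ran from 6.71 to 7.79 (median 7.07) in N100 eyes and from 6.90 to 7.69 (median 7.46) in N21 eyes, so the spread within each group was several times the difference between them. N100 replicate 8 had the highest mitosis level, 7.79, and the lowest rod and bipolar levels, 9.45 and 7.42. N100 replicate 1, with the highest rod level, 10.81, had a mitosis level of 6.85. The rod list ran from 9.45 to 10.81 (median 10.09) in N100 eyes and from 9.67 to 10.70 (median 9.84) in N21 eyes. The bipolar list ran from 7.42 to 8.59 (median 8.04) in N100 eyes and from 7.48 to 8.46 (median 7.72) in N21 eyes. In 7 of 9 N100 eyes the mitosis level lay below the N21 median, and in 7 of 9 the rod level lay above it. Within the first columns the median difference was -0.21 for mitosis, 0.14 for rods and 0.18 for bipolar cells, and 19 of 19 mitosis genes were negative, 9 of 12 rod genes positive and 7 of 9 bipolar genes positive. Without N21 replicate 2 these medians were -0.28, 0.20 and 0.27. The part that litter or developmental stage has in these levels was not tested, and the labels give neither.

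**Figure D4:**
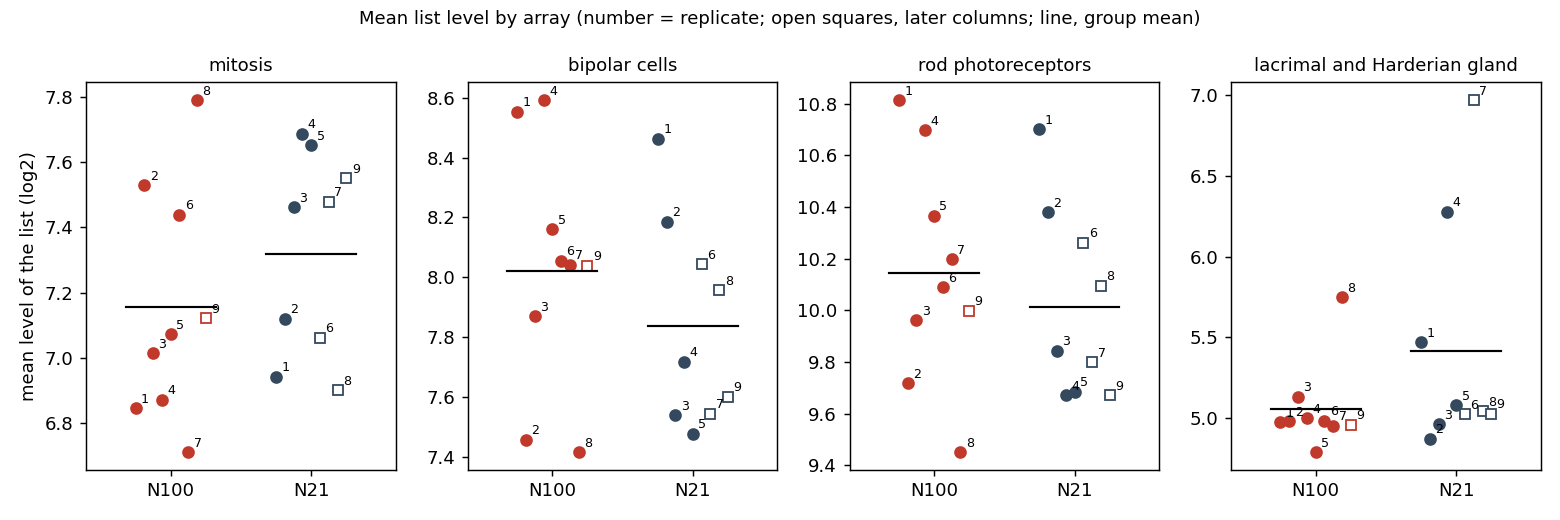
Mean log2 level of 4 gene lists (vertical axes) in each eye array, N100 left of N21; the number is the replicate, open squares stand in the later columns and the line is the group mean. N100 replicate 8 has the highest mitosis and the lowest rod and bipolar level, and the gland list is raised in N100 replicate 8 and N21 replicates 4 and 7.

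The supporting tissues of the eye lay near 0. The 20 lens fibre genes had a median of 0.04, which was -0.04 with 17 of 20 negative within the first columns. Cryaa, alpha-crystallin, differed by -0.03 ± 0.05 (95% interval -0.12 to 0.07), Crygb, a gamma-crystallin, by -0.16 ± 0.14 and Hsf4, the heat shock factor of the lens, by 0.11 ± 0.08. The 10 retinal pigment epithelium markers had a median of 0.08, and Rpe65, the isomerase of the retinoid cycle, differed by 0.16 ± 0.33. Of the other lists, cornea and surface epithelium had a median of 0.03, keratocytes and sclera 0.02, extraocular muscle 0.01 and smooth muscle and pericytes 0.00. The 12 microglia and macrophage markers had a median of 0.00, and Csf1r, the growth factor receptor of macrophages, differed by 0.12 ± 0.08.

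Stress and inflammation lists were as close to 0. The 13 heat shock genes had a median of 0.04, with Hspa1a, the inducible Hsp70, at -0.02 ± 0.16. The 17 cytokine and chemokine genes had a median of -0.01. Cxcl2, a neutrophil chemokine, ran from 4.14 to 4.76 (median 4.41) in N100 eyes and from 3.25 to 4.60 (median 4.12) in N21 eyes, a difference of 0.32 ± 0.14 (unadjusted p = 0.025), and all 9 N100 eyes lay above the N21 median. Of the 14 p53 and DNA damage genes, 6 were positive and 8 negative. Sesn2, a stress-induced sestrin, ran from 6.72 to 7.14 (median 6.96) in N100 eyes and from 5.95 to 6.97 (median 6.73) in N21 eyes, a difference of 0.28 ± 0.13 (unadjusted p = 0.043) that was 0.11 ± 0.10 within the first columns. Of 20 immediate-early genes 10 were positive and 10 negative, with Fos at 0.03 ± 0.11 and Egr1 at 0.19 ± 0.10, both transcription factors induced within minutes by stimuli. The 17 interferon-stimulated genes had a median of 0.06, and Stat2, a transcription factor of interferon signalling, differed by 0.15 ± 0.08 (unadjusted p = 0.049). Usp18, an inhibitor of interferon signalling, differed by 0.29 ± 0.15 with a level of up to 7.60 in N100 eyes and 5.82 in N21 eyes, and by 0.09 without N100 replicate 8.

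Of 15 circadian clock genes 2 had an unadjusted p under 0.05, against 2.19% of all genes, and both are repressors of the clock. Per1 ran from 7.09 to 7.46 (median 7.28) in N100 eyes and from 6.84 to 7.51 (median 7.09) in N21 eyes, a difference of 0.21 ± 0.10, and Nr1d1 (REV-ERB alpha) from 8.31 to 9.22 (median 8.54) in N100 eyes and from 7.90 to 8.64 (median 8.31) in N21 eyes, a difference of 0.26 ± 0.12 (unadjusted p = 0.034 for each). All 9 N100 eyes lay above the N21 median for Per1, and 8 of 9 for Nr1d1. Ciart, a further repressor, differed by 0.30 ± 0.16. The core activator Bmal1 (Arntl on the array) differed by -0.01 ± 0.07. The 15 clock genes had a median of 0.06, with 12 positive. Within the first columns the median was 0.03, 6 of 15 were negative and 1 had an unadjusted p under 0.05. The hour at which an eye was taken is not given in the labels.

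Abundant housekeeping complexes leaned to negative values of small size. Of 34 oxidative phosphorylation genes 29 were negative, with a median of -0.07, and of 14 measured ribosomal protein genes 13 were negative, with a median of -0.07. Their largest sizes were -0.18 ± 0.18 for Sdhb, a subunit of succinate dehydrogenase, and -0.20 ± 0.14 for Rpl13, a protein of the large ribosomal subunit. N21 replicate 7 had the highest mean level of the 18 arrays for both lists. Over the 30 alternatives the medians ran from -0.13 to -0.02 for oxidative phosphorylation and from -0.10 to -0.04 for ribosomal proteins. In brain the N100 minus N21 medians were -0.14 for oxidative phosphorylation and -0.14 for ribosomal proteins, but in lung they were 0.00 and -0.03. After hypoxia, the H100 minus H21 medians of the eye were 0.00 and -0.05.

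**Figure D5:**
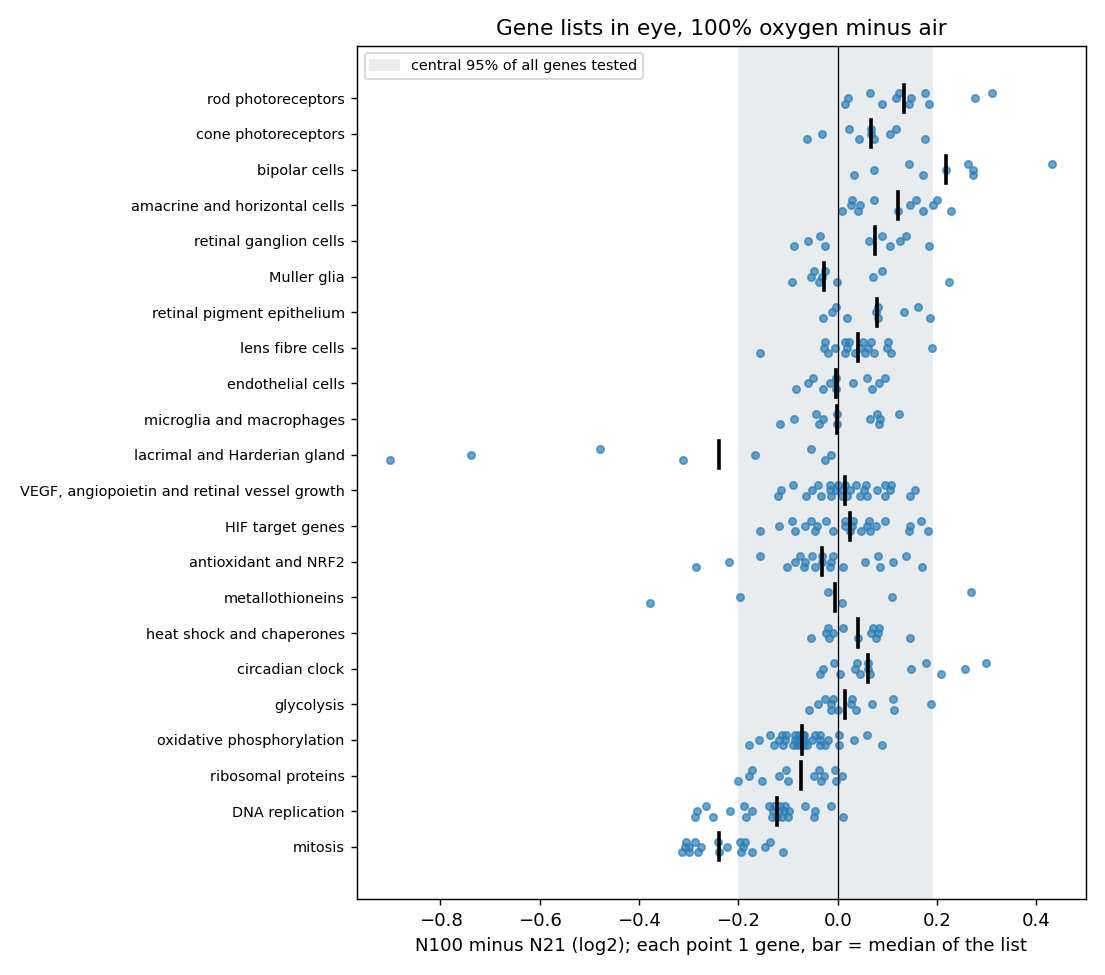
N100 minus N21 difference (log2, horizontal axis) of each gene of 22 lists in eye; each point is 1 gene, the bar is the list's median and the shaded band holds the central 95% of all genes tested. Mitosis lies wholly left of 0 and rods and bipolar cells wholly right of it, with most points inside or near the band.

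No gene passed the test for a different answer to the same oxygen phase after hypoxia. The interaction, which sets the H100 minus H21 difference of the eye against the N100 minus N21 difference, had 0 called genes (0%) and 557 genes (2.79%) at an unadjusted p under 0.05. Its median standard error was 0.14, against 0.10 for N100 minus N21, so 0 calls do not show equal answers. The 3 genes of smallest p were Rab4a, Cenpa and Kcnh1. Rab4a, a GTPase of endosome recycling, differed by 0.18 ± 0.07 without hypoxia and by -0.17 ± 0.07 after it. Cenpa differed by -0.41 ± 0.14 without hypoxia and by 0.21 ± 0.13 after it, an interaction of 0.62 ± 0.19 with an adjusted p of 0.999. Kcnh1, a voltage-gated potassium channel, differed by 0.15 ± 0.07 without hypoxia and by -0.18 ± 0.07 after it. Of the 24 named genes, the H100 minus H21 difference had the same sign for 9 of 12 on the positive side and 4 of 12 on the negative side. The median difference after hypoxia was 0.04 for mitosis, -0.02 for rods and -0.06 for bipolar cells, against -0.24, 0.13 and 0.22 without hypoxia.

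Brain and lung were set against the eye for the same 2 groups. The difference of N100 minus N21 between eye and brain had 0 called genes (0%) and 246 (1.23%) at an unadjusted p under 0.05, and that between eye and lung 0 called (0%) and 282 (1.41%). Against brain the smallest p belonged to Aox1, Alppl2 and Ect2l. Aox1, an aldehyde oxidase, differed by 0.26 ± 0.10 in eye and by -0.15 ± 0.09 in brain, and ran from 5.74 to 6.21 (median 6.12) in N100 eyes and from 5.34 to 5.96 (median 5.72) in N21 eyes. Alppl2, an alkaline phosphatase, differed by -0.21 ± 0.10 in eye and by 0.26 ± 0.11 in brain. Ect2l had an eye minus brain difference of 0.41 ± 0.13 in the 3-tissue fit, with -0.21 ± 0.09 in brain. Its difference of 0.14 ± 0.09 in the eye fit came from another probe set and is no part of that contrast. Aox1, Alppl2 and Ect2l were among the dimmest 40% of genes that an alternative eye fit left out.

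Against lung the smallest p belonged to Cd2, Cyp3a16 and Ccdc81. Cd2 differed by -0.25 ± 0.09 in eye and by 0.34 ± 0.10 in lung, an eye minus lung difference of -0.59 (unadjusted p = 8.5e-05) that did not pass the adjustment. In a fit of only the N100 and N21 arrays of both tissues it was -0.64 ± 0.11 with an adjusted p of 0.0339, the single call in these 4 comparisons over the 30 alternatives. Cd2 was low in eye, from 4.62 to 5.12 in N100 eyes and from 4.81 to 5.31 in N21 eyes. It was among the dimmest 40% of genes that an alternative left out. Cyp3a16, a cytochrome P450, differed by -0.08 ± 0.15 in eye and by 0.53 ± 0.11 in lung, and Ccdc81 by -0.31 ± 0.09 in eye and by 0.16 ± 0.09 in lung. Both were also among the dimmest 40% in eye. Over all 19937 genes the eye difference correlated at 0.27 with the brain difference, at 0.14 with the lung difference and at 0.12 with the H100 minus H21 difference of the eye. Genes are not independent replicates, and arrays of different tissues may come from the same pups.

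The widest eye-to-eye spread lay within the groups. Of 19937 genes 41 had a residual SD over 1 within the groups, against a median of 0.20, and the leading ones, named here after their values were seen, were secretory gland genes and sex-linked genes. Bpifa6, a secreted protein of the BPI fold family, ran from 3.57 to 12.65 (median 3.94) in N100 eyes and from 3.66 to 13.45 (median 4.28) in N21 eyes, a difference of -2.21 ± 1.93. Obp1a, an odorant-binding protein, ran from 3.66 to 8.84 (median 4.36) in N100 eyes and from 3.56 to 11.60 (median 4.52) in N21 eyes, a difference of -1.93 ± 1.37. Most eyes of both groups were low, and a few were very high. The lacrimal and Harderian gland markers showed the same eyes: the mean of the 8 measured markers was 5.75 in N100 replicate 8 against 4.79 to 5.13 in the other N100 eyes, and 6.97 and 6.28 in N21 replicates 7 and 4 against 4.87 to 5.47 in the other N21 eyes. All 8 gland markers had a negative difference, with a median of -0.24, and 0 had an unadjusted p under 0.05. Pip, the prolactin-inducible protein of gland fluid, differed by -0.90 ± 0.98, and Scgb2b27, a secretoglobin, by -0.74 ± 0.56. How much gland tissue came with each eye is not given in the labels, and its part in the other lists was not tested.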

How the data were processed

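Microarray signal was measured in eye, brain and lung. Per the submitters' processing notes and the values, the authors deposited log2 values after RMA, with no version given, and each tissue appears to have been normalized separately (medians 6.35 in eye, 6.07 in brain, 6.25 in lung). Labelling started from 10 ng of RNA. The labels' protocols name Ficoll centrifugation and a kit for blood, although the design text has tissue kept in RNAlater.

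Of 34760 probe sets, 21640 had exactly 1 gene symbol in the platform annotation, 1321 several and 11799 none; 21553 symbols were updated through RefSeq. The probe set with the highest mean in eye was kept for each of 19937 genes. Differences were fitted with limma 3.58.1 in R 4.3.3 (with data.table, version 1.17.8) over 56 eye arrays of 6 groups, with column position in the deposit (first 113 or later) as a term. H40 eye replicate 9 was left out, since it correlated at 0.957 with lung and 0.881 with eye. Tissue differences came from 1 fit of the 3 tissues without 3 such arrays, with the probe set of highest mean over all arrays for each gene. Genes with a two-sided Benjamini-Hochberg adjusted p under 0.05 were called. The fits were tested on simulated data.

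Named genes were the called genes or, where none, the 12 of smallest p per direction (3 for other comparisons) and the members of smallest p per described list, skipping predicted genes, chemosensory receptors and small RNAs. Textbook genes of each list (Vegfa, Hmox1, Nqo1, Adm, Sod2, Kdr, Angpt2, Sag, Nrl, Gnat1, Rpe65, Cryaa, Glul, Gfap, Mki67, Cdk1, Mt1, Mt2, Hspa1a, Fos, Bmal1, Pecam1) and Pip, Scgb2b27, Bpifa6 and Obp1a were named outside that rule. The 47 lists held 695 entries, of which 635 matched a tested gene. Groups, lists, members and rules were chosen with earlier results of these data known.

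No 2 of the 18 arrays were duplicates (highest correlation 0.994). Nothing in the labels says more of the animals than that they were randomized, and the number of arrays limits the precision.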

Additional observations from a re-analysis of the deposited data

Results flagged for a closer look

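Across 30 named genes and 47 list levels, 154 groups of 9 arrays were searched for an array far from its group. In this search 11 were found, where chance gives about 1 in 20, so the number found is near that share.

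N21 replicate 7, which of the 18 arrays had the lowest correlation with the other eyes, accounts for 8 of the 11. Its mean log2 level was the lowest of the N21 eyes for the glutamate, glutamine and GABA list (8.55, others 9.25 to 9.62), retinal astrocytes (7.49, others 7.85 to 8.02), glycolysis (10.02, others 10.60 to 10.89) and Müller glia (9.25, others 9.77 to 9.96). It was also lowest for p53 and DNA damage (7.82, others 8.08 to 8.33), neurotrophins (6.47, others 6.71 to 6.85), keratocytes and sclera (10.54, others 10.97 to 11.41) and extracellular matrix (9.26, others 9.77 to 10.23). Levels of such lists can move together within an array, so these are not 8 separate findings. Without N21 replicates 2 and 7, an alternative added after the data were seen, 0 genes were called and 498 had an unadjusted p under 0.05.

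N100 replicate 8 stood high for the lacrimal and Harderian gland list (5.75, others 4.79 to 5.13). Tm4sf20 was low in N100 replicate 4 (3.52, others 3.87 to 4.17). Rab4a was high in N100 replicate 9 (8.20, others 7.57 to 7.84), the N100 array that stands in the later columns.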

How the results depend on the processing

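Under each of 30 alternatives the eye difference between N100 and N21, its interaction with hypoxia and the eye minus brain difference had 0 called genes by limma. The eye minus lung difference had 0 under 29 and 1 (Cd2) in the fit of only the groups named. A repeated quantile normalization is among the 30. It gave the same counts as the main fit and is no separate check, because the values were already near a common distribution within each tissue. The number of arrays bounds what could be called, as the confidence intervals show. Genes at an unadjusted p under 0.05 for N100 against N21 were 437, and 777 without the position term, 286 with the off-tissue arrays kept, 261 of 11962 without the dimmest 40%, 788 of 34760 with every probe set, 694 with sex as a covariate, 861 with a replicate block, and 333 to 629 on leaving out each array in turn. For the interaction, the range over alternatives other than leaving out 1 array was 263 to 1331, for eye minus brain 48 to 587, and for eye minus lung 106 to 685. With the replicate block 0 genes were called in the 4 comparisons, with a smallest adjusted p of 0.132 for N100 against N21. The numbers do not pair the arrays: deviations of same-numbered arrays correlated between -0.19 and 0.40, over 0.1 in 1 of 9 pairs, and 1 of 9 N100 arrays was closest to its own number. The split of positive to negative among these genes moved to 208 and 287 within the first columns, against 265 and 172. Of the 24 named genes, Il1r2, Cd2, Ccdc81, Tm4sf20, Serpinb6e, Sh3d21, Xkr9 and Dnase1l3 were among the dimmest 40% and were not tested in that alternative. The same held for other genes given above, among them Cxcl2, Mt4, Lhx1, Osgin1, Sod3, Epo, Aox1, Alppl2, Ect2l and Cyp3a16. No sign of the 24 named genes turned under the 30 alternatives (712 gene values). These genes were picked for small p in the same arrays, and the alternatives share most arrays, so the like signs are no separate support. Of 47 list medians 33 turned at least once. Those for mitosis (-0.30 to -0.17), DNA replication (-0.18 to -0.09), bipolar cells (0.12 to 0.32), rods (0.05 to 0.23), amacrine and horizontal cells (0.06 to 0.15) and the gland list (-0.35 to -0.09) did not.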

Other observations

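The remaining lists are given as median N100 minus N21 differences (log2), with 0 genes called and 0 at an unadjusted p under 0.05 in each, except for the glucocorticoid list. Markers of myelin and the optic nerve had a median of 0.10, with 7 of 9 genes positive, and Mobp, a myelin protein, differed by 0.22 ± 0.13. The 3 measured Schwann cell markers were all negative, with a median of -0.19. Extracellular matrix genes had a median of 0.05, with 19 of 23 positive, but within the first columns the median was -0.02 with 12 of 23 negative, and without the position term it was 0.16. The 11 genes of glutamate, glutamine and GABA handling had a median of 0.07, with 10 positive, but within the first columns the median was 0.00 with 6 of 11 negative, and it was below 0 under 3 of 30 alternatives. Slc38a3, a glutamine transporter, differed by 0.22 ± 0.12. The 16 genes of the unfolded protein response had a median of 0.06, which was -0.05 within the first columns. The 15 cholesterol synthesis genes had a median of -0.06, the 13 acute phase and gliosis genes 0.05, the 8 neurotrophin genes 0.04 and the 6 astrocyte markers -0.01. Blood cell lists had medians of 0.06 for neutrophils, 0.04 for lymphocytes and 0.07 for the 4 measured erythroid genes, and the pigment cell list -0.02. Among 17 glucocorticoid-responsive genes, with a median of -0.02, Per1 was the single gene at an unadjusted p under 0.05. Genes of other tissues had medians of 0.02 for lung and 0.00 for forebrain neurons.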
